A study of Mus musculus with 30 samples.

Results

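The 35 genes described here encode subunits of glutamate and GABA receptors. They were chosen by symbol, through the transcript identifier that the arrays give each probe, and all 35 were measured among the 36717 genes and transcripts tested. They comprise 4 AMPA, 7 NMDA, 5 kainate, 1 delta and 6 metabotropic glutamate receptor genes, 10 GABA-A receptor genes and 2 GABA-B receptor genes. The arrays hold 10 further subunit genes of these families, which were kept as a separate list.

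RNA from hippocampus and from brain of 15 mice was hybridised to 30 one-colour Agilent arrays, 1 array for each tissue of each mouse. Mice of 4 genotypes were compared, and all were labelled C57BL/6j, aged 15 to 20 months and perfused with PBS. WT mice (3 females) carry no transgene. JHT mice (2 females) carry a deletion of the immunoglobulin heavy chain J segments and lack mature B cells. 3xTgAD mice (2 females, 3 males) model Alzheimer's disease and carry, among their alleles, the Swedish APP and P301L tau transgenes. 3xTgAD-BKO mice (2 females, 3 males), labelled JHT_3xTgAD, are the cross of the JHT and 3xTgAD lines. WT and JHT have no males, so each of their comparisons rests on females. The study describes the brain samples as lacking the hippocampus.

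Glutamate opens AMPA, NMDA and kainate receptors, which are cation channels built from subunits of 1 family each, and it also acts on metabotropic receptors coupled to G proteins. GABA opens GABA-A receptors, chloride channels assembled mostly from alpha, beta and gamma or delta subunits, and acts on GABA-B receptors, which work as a pair of different subunits. Which subunits a neuron makes sets the speed, pharmacology and synaptic place of its receptors, and brain regions are known to use different sets, with the alpha6 subunit typical of cerebellar granule cells and the alpha5 subunit of hippocampal pyramidal cells.

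Levels are log2 processed intensities after quantile normalization over the 30 arrays, for the brightest probe of each gene. A level cannot be set against that of another gene, because probes differ in how brightly they bind. Differences are log2 values with their standard error, and a gene is called at an adjusted p under 0.05 (limma, Benjamini-Hochberg over all genes and transcripts). The tissue difference is the mean of the 6 hippocampal groups of genotype and sex minus the mean of the 6 brain groups, so it can depart slightly from the difference of plain means.

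Data quality touched the receptor genes at a few points. Arrays of 1 tissue mostly shared slides: slide 1 held only hippocampal arrays, slides 3 and 4 only brain arrays, and slide 2 held 7 hippocampal arrays and 1 brain array. Tissue and slide can therefore hardly be told apart. Before normalization the 75th percentile of intensity was 454 to 824 on hippocampal and 841 to 1640 on brain arrays. The hippocampal array of 3xTgAD-BKO male replicate 0 stood apart with 432 outlier spots, and 3 of the 35 genes lay over 1 log2 unit outside the range of the other 14 hippocampal arrays on it, against 0 genes on each of those. Those 3 genes were Grin3b, Gabra4 and Gabbr1, and their tissue differences are given with and without that mouse. The brain array of the same mouse, the 1 brain array on slide 2, was not part of that count. It was the lowest or highest brain array for several genes, among them Grin1 (12.82), Grin2b (10.41), Gabra2 (9.48) and Gabra5 (9.74).

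Promoters of 5 genes are shown because these genes carry the results: Gabra6 and Grin3b had the 2 lowest hippocampal values relative to brain, Gabra5 and Grik4 were among the highest, and Gabrg3 differed between genotypes. Each runs 5′ to 3′ from 250 bases before to 50 after the most upstream RefSeq start (build GRCm38.p6), with capitals marking TATAAA and GGGCGG on either strand and CANNTG, the E-box.
Gabra6 (chr11:42321023-42321322, minus strand): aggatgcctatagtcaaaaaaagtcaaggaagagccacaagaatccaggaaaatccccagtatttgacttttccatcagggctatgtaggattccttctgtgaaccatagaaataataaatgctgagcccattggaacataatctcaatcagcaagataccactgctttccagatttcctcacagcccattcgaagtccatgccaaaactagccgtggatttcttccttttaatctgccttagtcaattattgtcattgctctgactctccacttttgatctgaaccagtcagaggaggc
Grin3b (chr10:79970474-79970773, plus strand): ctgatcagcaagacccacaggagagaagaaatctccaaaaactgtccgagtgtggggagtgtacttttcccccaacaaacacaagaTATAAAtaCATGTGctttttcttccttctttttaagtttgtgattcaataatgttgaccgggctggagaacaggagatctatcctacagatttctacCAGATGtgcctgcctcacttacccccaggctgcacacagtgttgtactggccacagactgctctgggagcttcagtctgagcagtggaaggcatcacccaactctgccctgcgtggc
Gabra5 (chr7:57510010-57510309, minus strand): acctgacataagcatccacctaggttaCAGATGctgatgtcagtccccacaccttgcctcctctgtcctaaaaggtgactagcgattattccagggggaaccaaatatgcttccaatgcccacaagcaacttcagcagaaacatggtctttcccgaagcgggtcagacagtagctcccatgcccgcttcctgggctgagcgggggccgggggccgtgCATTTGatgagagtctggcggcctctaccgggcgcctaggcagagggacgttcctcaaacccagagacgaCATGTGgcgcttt
Grik4 (chr9:42944322-42944621, minus strand): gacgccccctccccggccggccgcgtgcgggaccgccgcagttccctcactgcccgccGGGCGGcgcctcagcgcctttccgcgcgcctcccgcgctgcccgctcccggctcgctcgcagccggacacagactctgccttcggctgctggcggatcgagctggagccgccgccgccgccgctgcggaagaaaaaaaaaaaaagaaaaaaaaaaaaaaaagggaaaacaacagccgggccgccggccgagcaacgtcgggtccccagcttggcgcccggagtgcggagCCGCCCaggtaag
Gabrg3 (chr7:57387166-57387465, minus strand): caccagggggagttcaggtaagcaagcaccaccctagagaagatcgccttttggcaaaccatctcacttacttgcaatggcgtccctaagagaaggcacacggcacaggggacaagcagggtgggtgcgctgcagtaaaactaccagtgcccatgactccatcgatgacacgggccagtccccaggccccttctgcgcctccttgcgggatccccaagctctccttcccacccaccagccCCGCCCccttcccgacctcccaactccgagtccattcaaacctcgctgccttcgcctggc
RefSeq promoters were found for 25 of the 35 genes. TATAAA occurred in 3 of these 25, Gabra3, Gabrb2 and Grin3b, and in 14.2% of 27025 promoters of the same length. CANNTG occurred in 12 of the 25 against 72.1% of all promoters, and GGGCGG, the GC box, in 15 of the 25 against 35.9%. The Gabra6 window held none of the 3 motifs, with a GC content of 42% and 2 CG pairs. By comparison, the median CG count was 25 in the 12 promoters of genes called higher in hippocampus, 11 in the 11 of genes called lower and 7 over all promoters. A match of letters is a description and not a binding site.

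Hippocampus and brain differed in most of these receptor genes. In hippocampus 17 of 35 were higher (48.6%) and 14 were lower (40%), where the background over all genes and transcripts was 25.1% higher and 26% lower. Grin3a, Grid1, Gabra4 and Gabbr1 were not called. The median difference was 0.28, against 0 over all genes and transcripts. This gap remained with another background correction, normexp (0.21 against 0), but was absent under other scalings. Both medians were 0.28 with each array scaled to its 75th percentile, and they were -0.76 and -0.77 with each tissue normalized on its own. In 9 genes every hippocampal array lay above every brain array and in 9 every one lay below (25.7% each), compared with 3.85% and 4.69% in the background. The sign of these differences is relative to the bulk of genes on an array: when each tissue was normalized on its own the median over all genes shifted to -0.77 and 7 receptor genes were called higher and 24 lower, but taken relative to that median only Gria3 and Gabbr1 changed sides. Slide also bore on the calls: with slide as a fixed block, which can hardly be separated from tissue here, 18 of the 31 calls were kept and 13 were lost, those of Gria2, Gria3, Grin1, Grin2d, Grik1, Grik2, Grik3, Grik5, Grm2, Grm3, Grm8, Gabra3 and Gabrg3. The block widened the errors, and some of the lost differences kept their size, such as Gria2 at 0.81 ± 0.369, or grew, such as Grin2d at -1.24 ± 0.43, while others shrank. In bulk RNA, fewer cells of a type and less RNA per cell cannot be told apart.

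**Figure D1:**
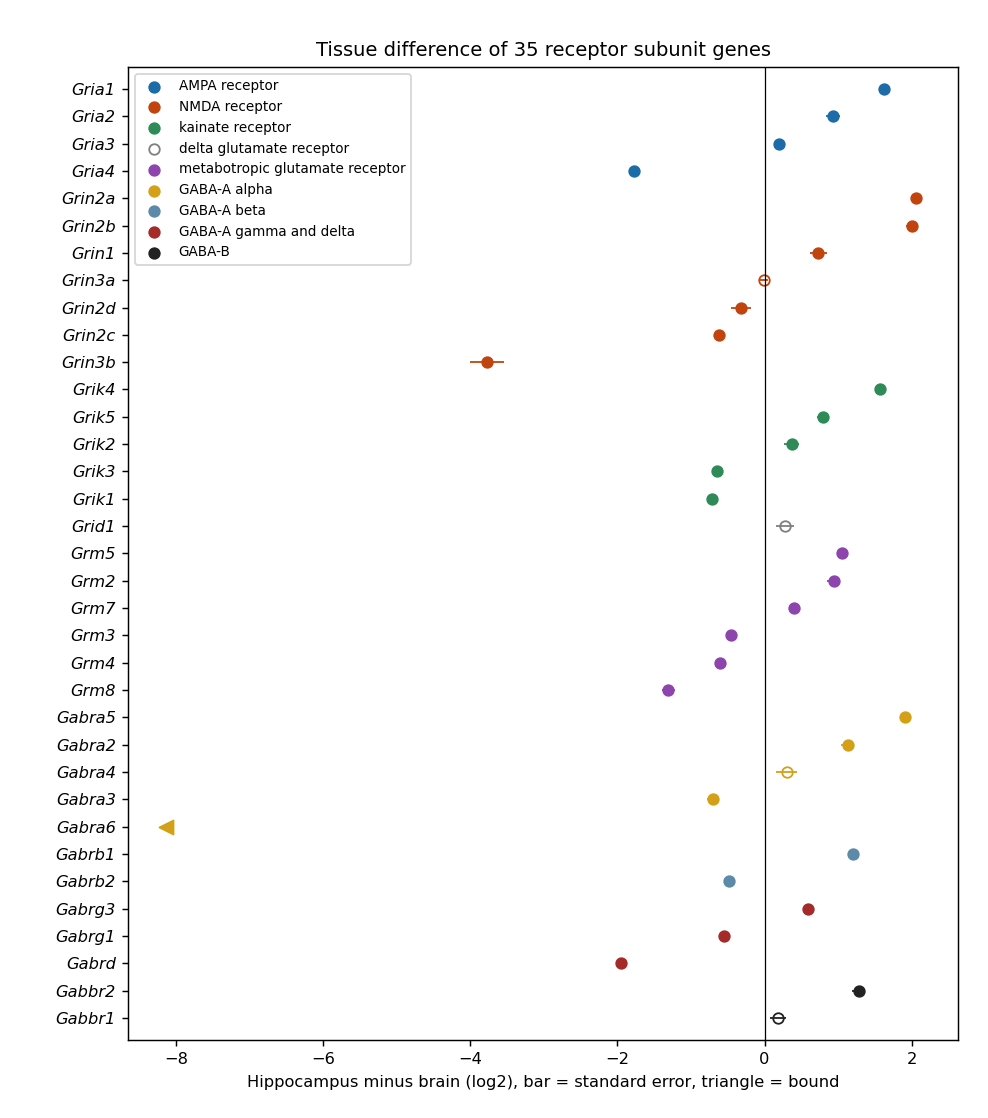
Hippocampus minus brain difference (log2) of the 35 receptor genes, grouped by class, with the standard error of limma's estimate as a bar; filled points were called at an adjusted p under 0.05, open points were not, and the triangle of Gabra6 marks a bound of 8.14 log2 units. Each large class holds genes on both sides of 0, from Grin2a at 2.06 to Grin3b at -3.78, with the bound of Gabra6 lower still. However, normalizing each tissue on its own, which puts the median of all genes at -0.77, turns 11 of the 35 genes from positive to negative.

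AMPA receptors, which carry most fast excitation, showed both directions. Gria1, the GluA1 subunit that is inserted into synapses during potentiation, measured 14.13, 14.37 and 14.59 at the lowest, median and highest hippocampal array and 12.52, 12.75 and 12.99 in brain. The arrays did not overlap, and Gria1 was 3.09-fold higher in hippocampus (1.63 ± 0.0498, adjusted p = 4.5e-16). Gria2, whose edited product makes the channel impermeable to calcium, was higher by 0.93 ± 0.0937 (adjusted p = 4.1e-08) with a wide hippocampal range of 9.38 to 11.04 that overlapped the brain range of 9.07 to 9.77. Gria3 was higher by only 0.2 ± 0.0404 (adjusted p = 0.000216). Gria4, the GluA4 subunit of rapidly gating receptors in cerebellum and in parvalbumin interneurons, went the other way. Its hippocampal arrays ran from 10.44 to 11.07 and its brain arrays from 12.18 to 12.87, a 3.43-fold lower level in hippocampus (-1.78 ± 0.0698, adjusted p = 2.16e-14).

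Among NMDA receptor genes the 2 main partner subunits of the forebrain were the highest. Grin2a measured 11.33, 11.57 and 12.1 in hippocampus and 9.32, 9.68 and 9.91 in brain, a 4.17-fold difference (2.06 ± 0.0641, adjusted p = 6e-16). Grin2b measured 11.38, 11.88 and 12.05 in hippocampus and 9.42, 9.8 and 10.41 in brain, a 4.03-fold difference (2.01 ± 0.0829, adjusted p = 4.77e-14). Neither gene had an array of one tissue within the range of the other. Grin1, the obligatory subunit of every NMDA receptor, was higher by 0.73 ± 0.117 (adjusted p = 1.81e-05), but its tissues overlapped and the 3xTgAD-BKO males had a mean difference of -0.01. That mean rested on replicate 0, at 11.97 in hippocampus and 12.82 in brain, whereas Grin1 was higher in hippocampus in 14 of 15 mice. Without that mouse it was higher by 0.8 ± 0.0983.

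The other NMDA subunits were lower or, for Grin3a, not called by the brighter probe. Grin2c, the subunit of mature cerebellar granule cells, was lower by 0.62 on the log2 scale (-0.62 ± 0.0508, adjusted p = 2.12e-09), with hippocampal arrays from 12.6 to 13.22 and brain arrays from 13.37 to 13.77. Grin3b, a glycine-binding subunit known from motor neurons, measured 2.49, 5.35 and 5.95 in hippocampus and 8.44, 9.1 and 9.53 in brain. It was 13.7-fold lower in hippocampus (-3.78 ± 0.23, adjusted p = 2.35e-11). The value of 2.49 belonged to the array of replicate 0, the only one of 15 hippocampal arrays not well above background for this gene. Without that mouse the difference was -3.61 ± 0.111 and the other 14 hippocampal arrays ran from 5.09 to 5.95. Grin2d barely passed the test (-0.32 ± 0.13, adjusted p = 0.0444), with 10 of 15 mice lower, and 10 of the 15 fits that left out a mouse lost the call. Grin3a differed by -0.01 ± 0.0512 with its brighter probe and by 0.47 ± 0.0589 with its dimmer probe. With the mean of its probes it was called higher (0.23 ± 0.0491, adjusted p = 0.000556).

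**Figure D2:**
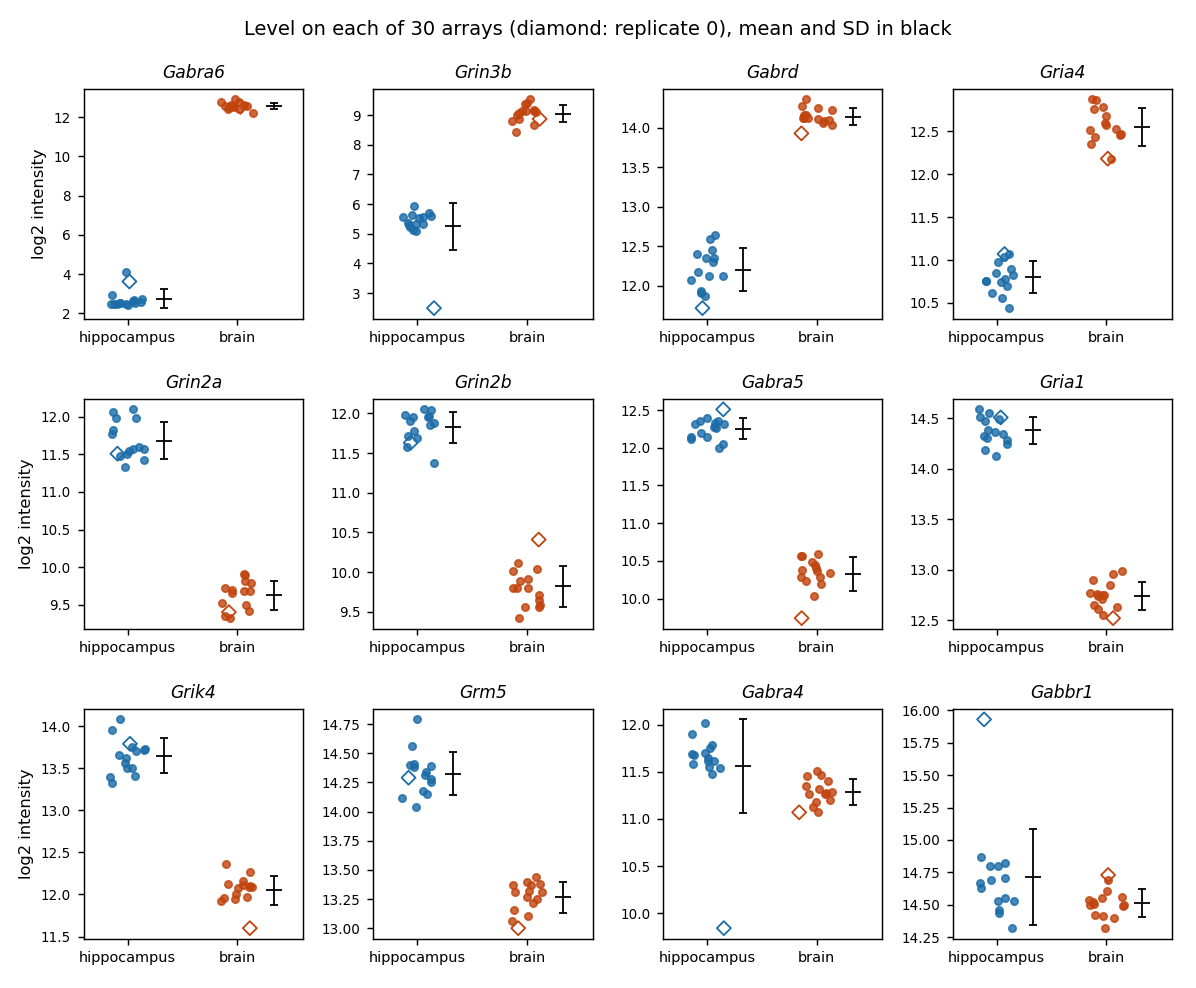
Level (log2 intensity) of 12 receptor genes on each hippocampal and brain array, with the mean and SD beside the points and diamonds for the arrays of replicate 0. The tissues are separated for Gabra6, Grin3b, Gabrd, Gria4, Grin2a, Grin2b, Gabra5, Gria1, Grik4 and Grm5, and the hippocampal diamond lies far from the other points for Grin3b, Gabra4 and Gabbr1.

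Kainate receptors, which sit largely at presynaptic sites and at mossy fibre synapses, divided by subunit. Grik4, a high-affinity subunit known from CA3 and dentate neurons, measured 13.33, 13.66 and 14.08 in hippocampus and 11.6, 12.09 and 12.36 in brain. It was 2.97-fold higher without overlap (1.57 ± 0.0576, adjusted p = 7.31e-15). Grik5, the other high-affinity subunit, was higher by 0.8 ± 0.0799 (adjusted p = 3.53e-08), but by 0.18 ± 0.279 with slide as a fixed block (adjusted p = 0.767). Among the low-affinity subunits Grik2 was higher by 0.37 ± 0.0992 (adjusted p = 0.0035), Grik1 lower (-0.71 ± 0.0716, adjusted p = 4.07e-08) and Grik3 lower (-0.65 ± 0.0637, adjusted p = 3.28e-08). Grik2 was the one of these 5 whose 6 group differences did not share a sign: it measured -0.07 in WT and -0.04 in JHT females and from 0.45 to 0.68 in the 4 groups with the 3xTgAD alleles. Its 3 WT brain arrays spanned 6.75 to 7.74. WT and JHT arrays were on slides 2 and 4 and most arrays of the other groups on slides 1 and 3, so genotype and slide largely coincide. No receptor gene was called when a genotype difference was compared between the tissues. Grid1, a delta receptor gene involved in synapse organisation, was not called (0.28 ± 0.122, adjusted p = 0.0634), but with the mouse as a replicate block its adjusted p was 0.00639.

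Metabotropic glutamate receptors gave 3 higher and 3 lower genes. Grm5, the postsynaptic group I receptor, measured 14.04, 14.31 and 14.79 in hippocampus and 13, 13.31 and 13.44 in brain, a 2.07-fold higher level with no overlap (1.05 ± 0.0553, adjusted p = 2.46e-12). Its 3 probes gave 0.43, 1.05 and 2.17, so the size depends on the probe and the direction does not. Grm2, a presynaptic group II receptor, was higher by 0.94 ± 0.0864 (adjusted p = 1.26e-08), whereas Grm3, which glia also carry, was lower (-0.46 ± 0.0541, adjusted p = 3.65e-07). Of the presynaptic group III receptors Grm7 was higher (0.4 ± 0.0524, adjusted p = 1.46e-06) and Grm4 and Grm8 were lower. Grm8 ranged from 8.23 to 9.31 in hippocampus and from 9.81 to 10.27 in brain, a 2.48-fold difference (-1.31 ± 0.0896, adjusted p = 1.39e-10) that fell short of the threshold with slide as a fixed block (-0.92 ± 0.347, adjusted p = 0.08). Grm4, abundant in cerebellar granule cells, was 1.52-fold lower (-0.6 ± 0.0668, adjusted p = 1.63e-07).

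GABA-A receptor alpha subunits held the largest difference of the 35 genes. Gabra6 measured 12.22, 12.56 and 12.9 at the lowest, median and highest brain array and was well above background on all 15. In hippocampus it measured 2.45, 2.53 and 4.11 and was not well above background on any of 15 arrays, so only a bound can be given: Gabra6 was at least 282-fold lower in hippocampus (adjusted p = 2.29e-21). The bound sets the brain mean of 12.57 against 4.43, the mean of the dimmest signals called well above background on the hippocampal arrays. Gabra5, the subunit of extrasynaptic receptors in hippocampal pyramidal cells, went the other way, with 12, 12.27 and 12.51 in hippocampus and 9.74, 10.37 and 10.59 in brain. It was 3.75-fold higher without overlap (1.91 ± 0.0677, adjusted p = 4.51e-15).

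Gabra2, the target of anxiolytic benzodiazepine action, was 2.19-fold higher (1.13 ± 0.0916, adjusted p = 1.86e-09) and its 2 probes gave 1.13 and 1.09. Gabra3 was 1.62-fold lower by its brighter probe (-0.7 ± 0.0811, adjusted p = 3.06e-07), and its dimmer probe gave -0.11 ± 0.172. Gabra4, which pairs with the delta subunit in dentate granule cells, was not called at 0.3 ± 0.144 (adjusted p = 0.0962). That result turned on 1 array: replicate 0 measured 9.84 in hippocampus where the other 14 ran from 11.48 to 12.02, and without that mouse Gabra4 was higher by 0.4 ± 0.049 (adjusted p = 1.29e-06). With slide as a fixed block, which rests on the arrays of that mouse, it gave 1.5 ± 0.18 (adjusted p = 1.53e-05).

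The beta, gamma and delta subunit genes also went both ways. Gabrb1 was 2.31-fold higher without overlap (1.2 ± 0.0596, adjusted p = 8.59e-13), and Gabrb2, the most widespread beta subunit, was 1.4-fold lower (-0.48 ± 0.0492, adjusted p = 5.07e-08). Gabrd, the subunit of receptors for tonic inhibition in cerebellar and dentate granule cells and thalamus, measured 11.72, 12.18 and 12.64 in hippocampus and 13.93, 14.13 and 14.36 in brain. It was 3.86-fold lower with no overlap (-1.95 ± 0.0605, adjusted p = 5.9e-16). Gabrg1 was lower (-0.55 ± 0.0615, adjusted p = 1.71e-07) and Gabrg3 higher (0.59 ± 0.0717, adjusted p = 5.89e-07). All 15 mice had the higher Gabrg3 value in hippocampus, with differences of 0.16 to 1.07 within a mouse.

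Of the 2 GABA-B genes, Gabbr2 was called by its brightest probe and Gabbr1 was not. Gabbr2, the subunit that couples to the G protein, measured 9.88, 10.41 and 11.01 in hippocampus and 8.56, 9.14 and 9.52 in brain, a 2.44-fold higher level without overlap (1.28 ± 0.0911, adjusted p = 2.4e-10). Its 3 probes gave 1.28, 0.92 and 0.74. Gabbr1, the subunit that binds GABA, was not called by its brightest probe (0.19 ± 0.109, adjusted p = 0.16). Its 2 dimmer probes gave 0.28 ± 0.0805 and 0.48 ± 0.0585, and with the mean of its probes it was called higher (0.32 ± 0.0528, adjusted p = 3.52e-05). Gabbr1 was also called higher with normexp (adjusted p = 0.00581) and with the deposited scores (adjusted p = 0.0089). The hippocampal array of replicate 0 measured 15.93 for it against 14.32 to 14.87 on the other 14, while the 2 dimmer Gabbr1 probes on that same array, at 11.51 and 10.65, lay within the range of the others. Without that mouse Gabbr1 was higher by 0.12 ± 0.0485 (adjusted p = 0.0418). With slide as a fixed block, which rests on the arrays of that same mouse, it was lower (-0.8 ± 0.166, adjusted p = 0.00256).

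Several of these genes are chromosomal neighbours in the RefSeq annotation and differed in unlike ways. Gabrg1, Gabra2, Gabra4 and Gabrb1 lie together on chromosome 5, with 1 coding gene between Gabra2 and Gabra4 and none between the other neighbours, and gave -0.55, 1.13, 0.3 and 1.2. Gabra6 and Gabrb2, adjacent on chromosome 11, were both lower, and Gabrg3 and Gabra5, adjacent on chromosome 7, were both higher.

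The tissue differences recurred across the groups of genotype and sex. In 30 of the 35 genes all 6 groups had a difference of the same sign, and in 24 all 15 mice did. The shares of all genes and transcripts with such agreement were not computed, so these counts describe the receptor genes only. The 5 exceptions among groups were Grin1, Grin2d, Grin3a, Grik2 and Grid1. Fitted on females, on males and on WT females alone, 25 of 35 genes were called in all 3, as were 17.3% of all genes and transcripts. Within slide 2, where 2 hippocampal arrays and 1 brain array of 3xTgAD-BKO males can be compared with no test, 31 genes had the sign of the full comparison. That brain array is the one of replicate 0, which was the lowest or highest brain array for several genes. The share over all genes was not computed for this count. Of the 17 genes with over 1 probe, all probes shared a sign in 16, Grin3a being the exception. For Grik3 and Gabra3 this says little, since the dimmer Grik3 probe was well above background on 1 of 30 arrays (-0.25 ± 0.3) and the dimmer Gabra3 probe lay within its error of 0.

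**Figure D3:**
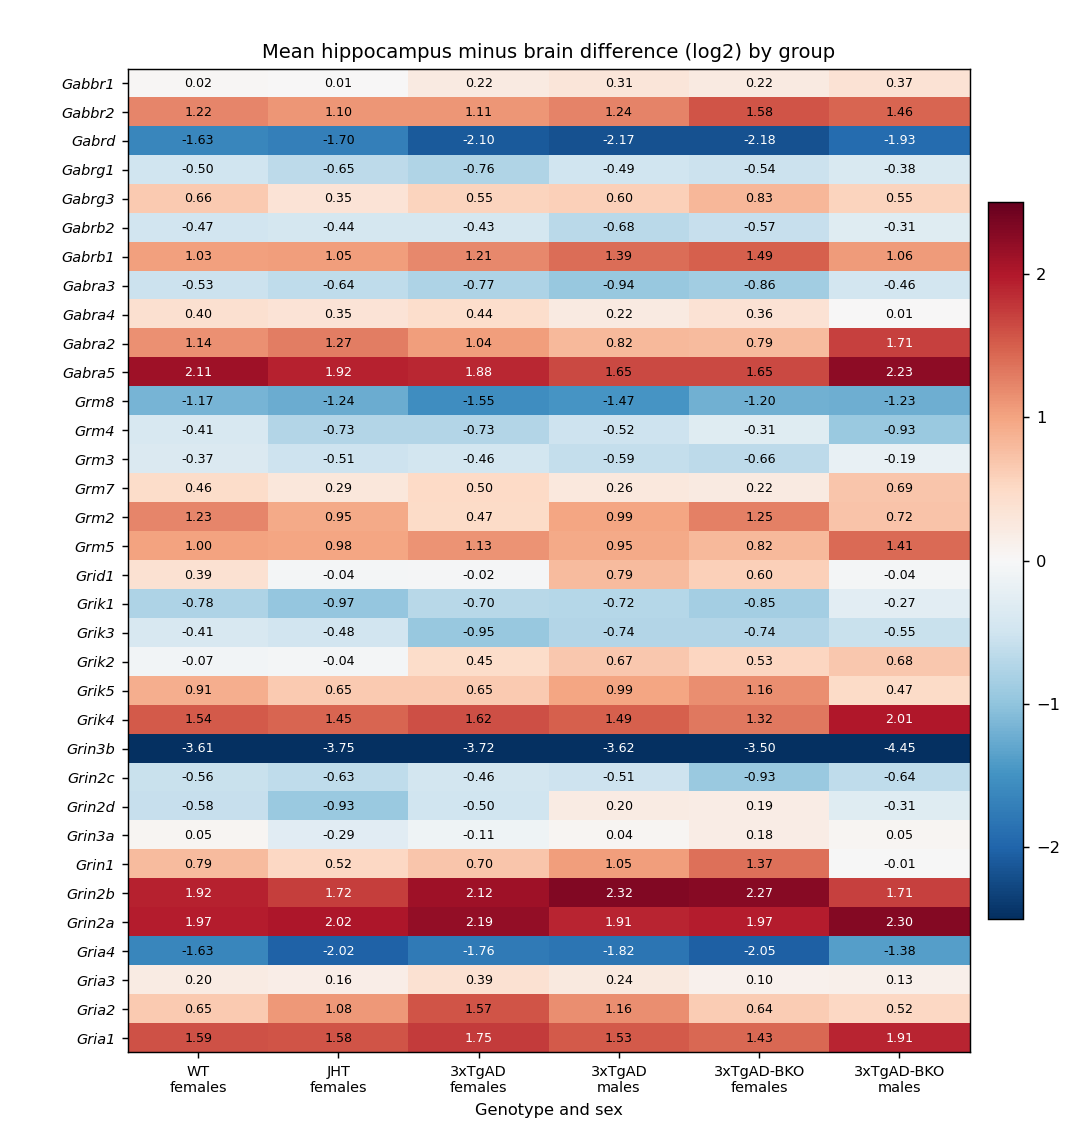
Mean hippocampus minus brain difference (log2) within each group of genotype and sex for 34 receptor genes (Gabra6, not above background in hippocampus, is left out); red is higher and blue lower in hippocampus, with 3 mice in WT females and in each male group and 2 in the others. Rows such as Grin2a (1.91 to 2.3) and Gabrd (-2.18 to -1.63) keep their colour, while Grid1 runs from -0.04 to 0.79.

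Genes of proteins that hold or modulate these receptors, and of transmitter supply, were taken from lists written down with earlier results of these data known. Of 33 measured receptor partners 22 were higher in hippocampus and 6 lower, where 25.1% of all genes and transcripts were higher and 26% lower. The 3 highest were the AMPA receptor auxiliary genes Cacng8 (2.57 ± 0.11), the TARP gamma-8 typical of hippocampus, Shisa6 (1.84 ± 0.0624) and Cnih2 (1.55 ± 0.0463). The 3 lowest were Kctd8 (-2.13 ± 0.1), a GABA-B auxiliary subunit, Neto2 (-1.08 ± 0.0706), a kainate receptor auxiliary subunit, and the AMPA receptor auxiliary gene Gsg1l (-0.95 ± 0.0827). Cacng2, stargazin, known from cerebellar granule cells, measured -0.62 ± 0.0629. Scaffolds of glutamate receptors such as Dlg4, Homer2 and Shank1 gave 9 higher and 0 lower genes of 12.

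All 15 transmitter supply genes were called, 5 higher and 10 lower, against 25.1% and 26% of all genes and transcripts. The 6 genes of GABA synthesis, vesicle loading, uptake and breakdown were all lower, down to Slc32a1 (-1.15 ± 0.0659), the vesicular GABA transporter. Slc17a7, the vesicular glutamate transporter of cortical and hippocampal neurons, was 2.5-fold higher (1.32 ± 0.175), and Slc17a6, its counterpart in thalamus and brainstem, was 9.34-fold lower (-3.22 ± 0.139). The glutamate transporters Slc1a2 (1.09 ± 0.0486) and Slc1a1 (0.92 ± 0.0565) were higher. Slc1a6, the Purkinje cell transporter, was lower (-2.2 ± 0.064), as was Slc17a8 (-1.72 ± 0.0794).

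**Figure D4:**
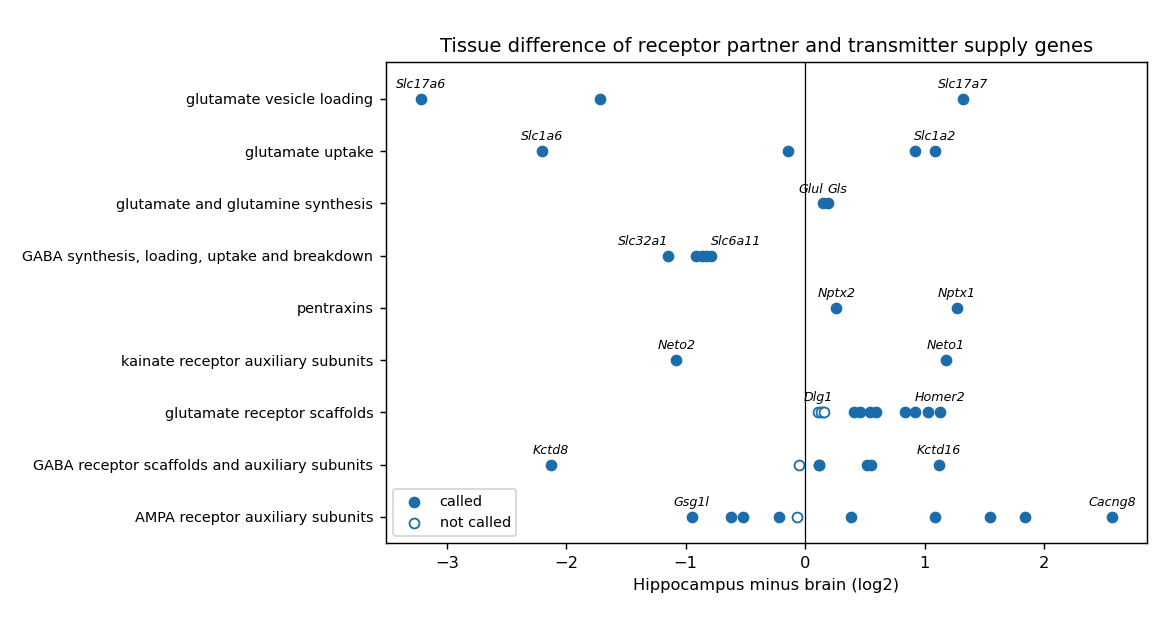
Hippocampus minus brain difference (log2) of 33 receptor partner and 14 transmitter supply genes, 1 point a gene, by role; filled points were called, open points were not, and the lowest and highest gene plotted in each role are named. The GABA supply genes plotted all lie below 0, with Slc32a1 at -1.15, whereas glutamate vesicle loading runs from Slc17a6 at -3.22 to Slc17a7 at 1.32 when all 30 arrays are normalized together.

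Of the 10 further subunit genes, 3 were higher, among them Gabrr1 and Gabrr2, 3 were lower and 4 were not called. Over all genes and transcripts 25.1% were higher and 26% lower. Grm6, a retinal receptor, passed the scanner's background test on none of the arrays.

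Marker genes of other regions moved with these results. All 6 cerebellar neuron markers were lower in hippocampus, from Zic1 (-2.88 ± 0.201) to Cbln3, which was not well above background on any hippocampal array. Their summed linear intensity was 2400 to 13800 on hippocampal and 98900 to 133000 on brain arrays. All 6 striatal markers were also lower, Ppp1r1b the least (-1.96 ± 0.151), with sums of 6520 to 17900 against 39700 to 62000. Of 4 thalamic markers 3 were lower, between Tcf7l2 (0.31 ± 0.0651) and Rgs16 (-1.53 ± 0.0827), with sums of 2980 to 5550 against 5300 to 10100. Of 6 hippocampal principal neuron markers 4 were higher, from Wfs1 (-0.13 ± 0.183) to Dsp (4.89 ± 0.157), and their sums, dominated by Wfs1, overlapped at 7070 to 23400 against 12100 to 15400. The part of these markers in the receptor results was not tested.

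Markers of cell classes, including choroid plexus, gave values in both directions. The 5 pan-neuronal markers ran from Stmn2 (-0.43 ± 0.0332) to Syt1 (0.44 ± 0.0431), 2 higher and 2 lower, with sums of 268000 to 331000 in hippocampus against 264000 to 296000 in brain. The 5 interneuron markers ran from Pvalb (-2.57 ± 0.071) to Lhx6 (0.88 ± 0.0732), with sums of 42200 to 72400 against 65900 to 95900. Astrocyte markers ran from Aqp4 (-0.78 ± 0.0813) to Gfap (0.54 ± 0.135), oligodendrocyte markers from Mag (-0.96 ± 0.12) to Mbp (0.56 ± 0.0547) and microglia markers from P2ry12 (0.13 ± 0.101) to Tmem119 (0.55 ± 0.0773). Choroid plexus markers, from Ttr (-2.57 ± 0.625) to Kl (0.67 ± 0.321), summed to between 1460 and 359000 on hippocampal arrays and between 63400 and 177000 on brain arrays.

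Genotype was compared within each tissue, and by the brightest probe of each gene Gabrg3 was the 1 receptor gene called. A dimmer probe of Grin3a, described after it, also separated the genotypes. Gabrg3 encodes the gamma3 subunit of GABA-A receptors. In hippocampus its level was 6.92, 7.06 and 6.67 in the 3 WT females and 6.6 and 6.48 in the 2 JHT females. In 3xTgAD mice it was 8.06 and 8.37 in the 2 females and 8, 8.15 and 8.53 in the 3 males. In 3xTgAD-BKO mice it was 6.88 and 6.61 in the 2 females and 6.6, 6.91 and 6.66 in the 3 males. The 5 hippocampal arrays of 3xTgAD mice, at 8 to 8.53, lay above all 10 others, at 6.48 to 7.06.

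The brain arrays of the same mice gave the same separation. Gabrg3 measured 6.37, 6.19 and 6.12 in WT females and 6.22 and 6.16 in JHT females. It measured 7.51 and 7.8 in 3xTgAD females and 7.69, 7.73 and 7.46 in 3xTgAD males. It measured 5.87 and 5.97 in 3xTgAD-BKO females and 6.44, 5.86 and 6.22 in 3xTgAD-BKO males. Here too the 5 arrays of 3xTgAD mice (7.46 to 7.8) lay above the 10 others (5.86 to 6.44).

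**Figure D5:**
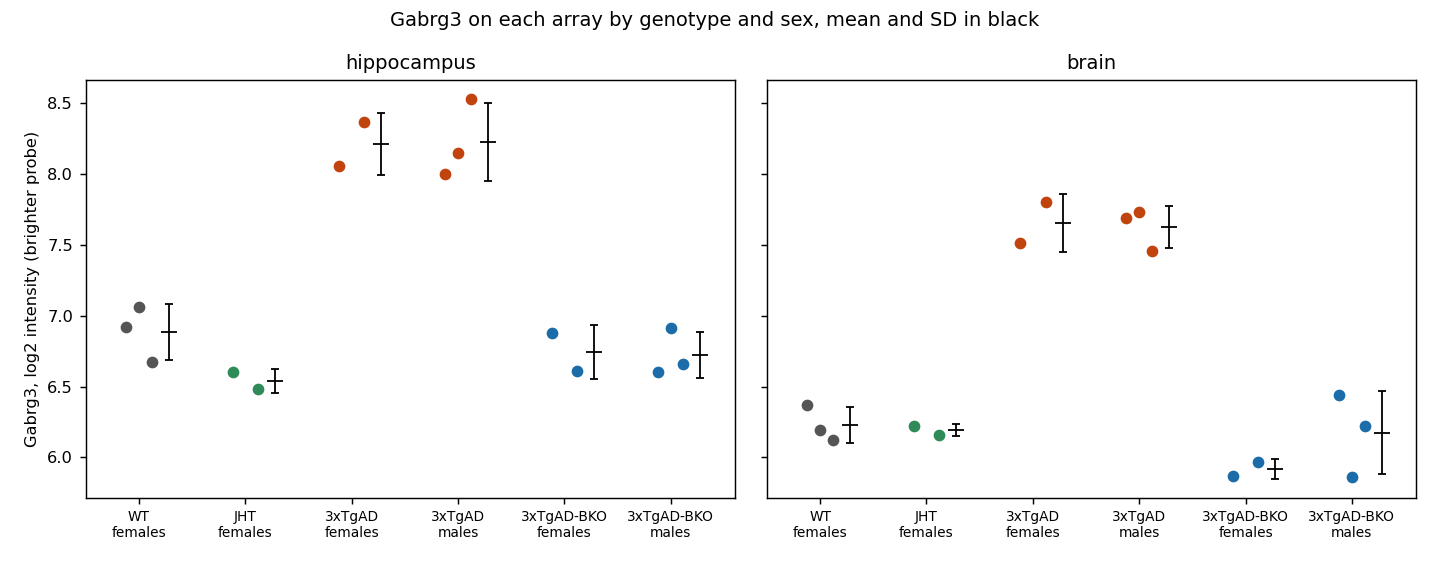
Gabrg3 level (log2 intensity, brighter probe) on each hippocampal and brain array by genotype and sex, with the mean and SD of each group in black. The 5 arrays of 3xTgAD mice lie above all others in both tissues. In hippocampus 3xTgAD-BKO arrays (6.6 to 6.91) lie within the range of WT and JHT arrays (6.48 to 7.06). In brain they reach lower, at 5.86 to 6.44 against 6.12 to 6.37, and this was not tested.

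In females Gabrg3 was higher in 3xTgAD than in WT mice, 2.51-fold in hippocampus (1.33 ± 0.183, adjusted p = 0.0105) and 2.7-fold in brain (1.43 ± 0.161, adjusted p = 0.00155). In 3xTgAD-BKO against 3xTgAD mice of both sexes it was lower, 2.79-fold in hippocampus (-1.48 ± 0.13, adjusted p = 0.000302) and 3.02-fold in brain (-1.6 ± 0.114, adjusted p = 3.16e-05). The females alone gave -1.46 ± 0.201 in hippocampus and -1.74 ± 0.177 in brain, and the males alone -1.5 ± 0.164 and -1.45 ± 0.144, all 4 called. Fitted on only the groups compared, these 4 differences and both against WT were no longer called, with adjusted p from 0.061 to 0.229, and likewise with the methods' t-test after adjustment (0.14 to 0.329). The hippocampal call in females was also lost without replicate 2 or 7, and that against WT without replicate 2. The comparison of both sexes was called in each tissue under both of these tests. These comparisons share the 3xTgAD arrays, so the higher value against WT and the lower value of 3xTgAD-BKO are not independent of each other. In JHT against WT females Gabrg3 gave -0.34 ± 0.183 in hippocampus (adjusted p = 0.7) and -0.04 ± 0.161 in brain (adjusted p = 1).

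The Gabrg3 result rests on 1 of 2 probes, so it is a difference in the signal of that probe. The labels give C57BL/6j for all mice, whereas the strain names in the study's methods also give the 3xTgAD and JHT lines ancestry from another strain. Whether a base that differs between strains lies under a probe was not tested, and such a base could change a probe's signal without a change in RNA level. Both are assigned to the same RefSeq transcript, and the brighter one was well above background on all 30 arrays, the dimmer one on 25. In 3xTgAD-BKO against 3xTgAD mice of both sexes the dimmer probe gave 0.27 ± 0.243 in hippocampus and 0.26 ± 0.165 in brain. In 3xTgAD against WT females it gave -0.48 ± 0.344 in hippocampus and -0.24 ± 0.234 in brain. With the mean of both probes the call was lost in every comparison but that of 3xTgAD-BKO with 3xTgAD mice of both sexes in brain (adjusted p = 0.0192). WT and 3xTgAD females also lay on different slides in each tissue, whereas 3xTgAD and 3xTgAD-BKO females shared a slide in each tissue.

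The nearest genes on chromosome 7 were not called beside Gabrg3. Of the 10 closest coding genes with a probe, 5 on each side, limma called 0 in each of these genotype comparisons in either tissue. Gabra5, next to it, gave 0.1 ± 0.0749 in hippocampus and -0.07 ± 0.146 in brain in 3xTgAD-BKO against 3xTgAD mice of both sexes. Oca2, the pigmentation gene on its other side, gave 0.13 ± 0.871 and -0.18 ± 0.185. These neighbours were picked after the Gabrg3 values had been seen.

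Grin3a, a modulatory NMDA receptor subunit, was singled out after its values were seen, and here the dimmer of 2 probes carried the difference. Its brighter probe, the one used throughout, gave 0.23 ± 0.0956 in hippocampus and 0.09 ± 0.0825 in brain for 3xTgAD-BKO against 3xTgAD mice of both sexes. The dimmer probe, assigned to the same RefSeq transcript and well above background on all 30 arrays, gave 1.75 ± 0.116 and 1.68 ± 0.0831 on the same log2 scale. As for Gabrg3, this is a difference in the signal of 1 probe, and a strain difference under the probe was not tested. On that probe the hippocampal arrays of 3xTgAD-BKO mice measured 9.44 and 9.65 in the 2 females and 9.45, 9.32 and 9.58 in the 3 males, above all 10 other arrays at 7.36 to 8.14. In brain they measured 8.89 and 8.87 in the females and 9.23, 9.07 and 9.13 in the males, above the 10 others at 7 to 7.46. The arrays of 3xTgAD and JHT mice, the lines crossed to give 3xTgAD-BKO, are among those 10 others in each tissue. For 3xTgAD against WT females it gave -0.21 ± 0.164 in hippocampus and 0.21 ± 0.117 in brain, and for JHT against WT females -0.45 ± 0.164 and -0.03 ± 0.117. With the mean of all probes per gene, Grin3a was called in 3xTgAD-BKO against 3xTgAD mice of both sexes, by 0.99 ± 0.096 in hippocampus (adjusted p = 0.000658) and 0.88 ± 0.0726 in brain (adjusted p = 9.23e-05). Gabrg3 was then no longer called in hippocampus, and Grin2a was called in brain of 3xTgAD-BKO against 3xTgAD females (-1.04 ± 0.156, adjusted p = 0.0107). Its dimmer probe, well above background on 28 of 30 arrays, gave -1.65 ± 0.206 there. The brighter Grin2a probe averaged 9.85 in 3xTgAD and 9.41 in 3xTgAD-BKO females and was not called. In brain of males the mean of the Grin2a probes gave 0.18 ± 0.127.

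The other 34 receptor genes, by their brightest probes, were not called in any genotype comparison. In 3xTgAD against WT females 1 of 35 genes (2.86%) was called in each tissue, against 0.746% of all genes and transcripts in hippocampus and 1.15% in brain. In 3xTgAD-BKO against 3xTgAD females it was 1 of 35 in each tissue against 0.37% and 1.12%, in males 1 of 35 against 0.847% and 0.961%, and in both sexes together 1 of 35 against 1.02% and 2.64%. At an unadjusted p under 0.05 the counts were 5 of 35 in hippocampus and 2 in brain for 3xTgAD against WT females, or 14.3% and 5.71%, where 12% and 11% of all genes reached it. For 3xTgAD-BKO against 3xTgAD females they were 10 in hippocampus (28.6%, against 16.4% of all genes) and 5 in brain (14.3%, against 12.9%). For males they were also 10 in hippocampus (28.6%, against 18.2%) and 5 in brain (14.3%, against 11.5%). They were 5 and 8 for 3xTgAD-BKO against 3xTgAD mice of both sexes, or 14.3% and 22.9%, where 10.5% and 14.5% of all genes reached it.

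Gabbr2 and Gria2 came near the threshold. Gabbr2 measured 9.49 and 9.45 in brain of 3xTgAD females and 8.56 and 8.59 in 3xTgAD-BKO females, a difference of -0.9 ± 0.192 (adjusted p = 0.06), and was called when replicate 8 or 9 was left out, with slide as a block or after filtering dim probes. In brain of males it gave 0.05 ± 0.157, and the difference between the sexes was -0.94 ± 0.248 (adjusted p = 0.353). Gria2 in hippocampus was highest in 3xTgAD females, at 10.65 to 11.04, against 9.5 to 10.08 in WT females, and of the adjusted tests run it was called in that comparison only when all 30 arrays shared 1 fit.

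Comparisons without the 3xTgAD alleles or between the sexes called no receptor gene. In JHT against WT females limma called 0 of 35 genes in hippocampus and 0 in brain, against 0.0926% and 0.161% of all genes, with 3 (8.57%) and 0 at an unadjusted p under 0.05, which 7.83% and 6.31% of all genes reached. In males against females it called 0 in each tissue, against 0.0381% and 0.139%, with 0 in hippocampus and 6 in brain (17.1%) at an unadjusted p under 0.05, which 5.82% and 9.38% of all genes reached. In all 4 of these comparisons the t-test named in the methods, adjusted over all genes, also called 0. The largest single differences were 0.62 for Gria2 in hippocampus of JHT against WT females and -0.53 for Grin3b in hippocampus of males against females. The latter rested on the array of replicate 0: without that mouse Grin3b gave -0.03 ± 0.166, and the largest difference between males and females in hippocampus was -0.49 ± 0.231 for Gria2 (adjusted p = 0.776).

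Genotype differences were also compared between the tissues and between the sexes. The difference between tissues called 0 of 35 genes for 3xTgAD against WT females (background 0.0926%), 0 for 3xTgAD-BKO against 3xTgAD mice of both sexes (0.0899%) and 0 for JHT against WT females (0.0681%), with 4, 2 and 0 genes (11.4%, 5.71% and 0%) at an unadjusted p under 0.05, which 6.75%, 6.03% and 4.72% of all genes reached. For Gabrg3 the genotype difference in hippocampus minus that in brain was -0.1 ± 0.248 for 3xTgAD against WT females and 0.11 ± 0.176 for 3xTgAD-BKO against 3xTgAD mice, both within their error of 0. The difference between females and males in the 3xTgAD-BKO comparison called 0 genes in hippocampus (background 0.0245%) and 0 in brain (0.101%).

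In hippocampus 13 of the 35 genes (37.1%) reached an unadjusted p under 0.05 for that difference between the sexes, where 21.2% of all genes did. In brain 3 genes (8.57%) reached it, against 8.75% of all genes. The smallest p-values in hippocampus belonged to Grik4 (-0.81 ± 0.188, adjusted p = 0.0732), Grin1 (1.27 ± 0.311, adjusted p = 0.0744) and Grin2a (-0.92 ± 0.236, adjusted p = 0.0785), with females minus males as the direction. The hippocampal arrays of 3xTgAD-BKO males were divided between slides 1 and 2, and those of the other 3 groups of this comparison were all on slide 1. With slide as a fixed block the genes called were Gabbr1, Gabra4, Gabrb2, Grin1 and Grin3b, of which Gabbr1, Gabra4 and Grin3b are those on which the array of replicate 0 stood apart. That array was the 1 hippocampal array of 3xTgAD-BKO males on slide 1, no other group had hippocampal arrays on both slides, and without it the slide block could not be fitted. Without that mouse and without the block, the differences of these 3 genes were 0.35 ± 0.181 for Gabbr1, -0.49 ± 0.177 for Gabra4 and -0.17 ± 0.332 for Grin3b, none called.

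Of the receptor partners and transmitter supply genes, 1 of 48 was called in any genotype comparison. Grip1, a scaffold of AMPA receptors, was lower in brain of 3xTgAD-BKO than of 3xTgAD mice of both sexes (-0.34 ± 0.0771, adjusted p = 0.0438). In that comparison 2.64% of all genes and transcripts were called.

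Of the 53 marker genes, 2 were called in a genotype comparison, both in hippocampus of 3xTgAD-BKO against 3xTgAD mice. There 2 were called in males and 1 in both sexes together, against 0.847% and 1.02% of all genes and transcripts. Lef1, a thalamic marker, was higher in both sexes together (0.8 ± 0.15, adjusted p = 0.0336) and in males (1.03 ± 0.189, adjusted p = 0.0399). Drd2, the D2 dopamine receptor of striatum, was called lower in males (adjusted p = 0.0117) near the limit of detection: it was well above background on all 3 arrays of 3xTgAD males, at 4.95 to 5.51, and on none of the 3 arrays of 3xTgAD-BKO males, at 4.04 to 4.11, so no fold is given. The summed intensity of the 4 thalamic markers was 3430 to 5550 on hippocampal arrays of 3xTgAD males and 3720 to 5310 in 3xTgAD-BKO males, and that of the 6 striatal markers 9580 to 17000 against 6520 to 8920. The 6 choroid plexus markers were not called, but in JHT against WT females all 6 reached an unadjusted p under 0.05 in hippocampus with a median difference of 5.7, and their sums were 225000 to 313000 on the 2 JHT arrays and 1460 to 5390 on the 3 WT arrays. On hippocampal arrays of 3xTgAD mice these sums ran from 17200 to 24600 in females and from 9540 to 359000 in males, and in 3xTgAD-BKO mice from 3980 to 337000 in females and from 2180 to 10400 in males. The part of these markers in the genotype results of the receptor genes was not tested.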

How the data were processed

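The authors hybridised RNA of hippocampus and brain to one-colour Agilent arrays and deposited the scanner files of Feature Extraction 12.0.3.1, whose processed intensity is background-subtracted, and a table of scores. Set against the scanner files, the deposited scores match the log10 processed intensity of each array, centred on its mean and divided by its SD, within a median of 0.00247 to 0.00254. After removal of 3671 control spots and of outlier spots, the deposited processed intensity was log2-transformed, averaged over the spots of a probe and quantile-normalized over 30 arrays. Following the methods, each gene was represented by its probe of highest average. This gave 36717 genes and transcripts. Arrays have no read depth, so precision is set by how many mice there were.

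limma 3.58.1 in R 4.3.3 (lmFit, eBayes) was fitted with 1 mean for each group of tissue, genotype and sex, over all 30 arrays for tissue and within a tissue for genotype, with Benjamini-Hochberg adjustment over all genes and transcripts at 0.05. The 2 arrays with a mouse number were taken as 1 mouse, since the series gives 15 mice and 15 numbers in each tissue. Over 24892 genes, deviations of the 2 arrays of a mouse correlated at a median of 0.085 (6 of 15 above 0.1) and those of different mice at -0.0594. Alternatives were 75th percentile scaling, quantile normalization within a tissue, normexp on the median signal (offset 50), removal of dim probes, use of the deposited scores, averaging over probes, slide as a fixed or random block, the mouse as a block, fits on part of the arrays, the t-test of the methods and leaving out each mouse. Values of dimmer probes on their own were added after seeing the data. The fit was tested on simulated data.

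The receptor genes and all gene lists were chosen with earlier results of these data known. All receptor genes are named. Values by array or group are given for those past the threshold (at most the 12 of largest change) and for the largest change of each class, with a bound for genes not above background. Also named, for partner genes and for supply genes, are the 3 that rose and the 3 that fell most between tissues, those past the threshold in a genotype comparison (at most 5), and the largest and smallest change of each marker list. Grin3a's dimmer probe lies outside this rule. Some genes and 1 allele of the 3xTgAD line are not reported here.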

Additional observations from a re-analysis of the deposited data

Results flagged for a closer look

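In groups of 5 arrays (3xTgAD and 3xTgAD-BKO mice of each tissue, both sexes together), the lowest or highest array of a receptor gene lay apart from the others in 15 of 140 groups, where the gap to the nearest array, as a share of the group's range, passed Dixon's critical value of 0.71. Chance gives about 1 in 20. The hippocampal array of 3xTgAD-BKO replicate 0 accounted for 3: Grin3b had a gap share of 0.907 (2.49 against 5.34), Gabra4 0.783 (9.84 against 11.54) and Gabbr1 0.828 (15.93 against 14.71). The brain array of the same mouse was apart for Grm2 at 0.829 (9.77 against 9.1) and Grm4 at 0.859 (9.56 against 9.03).

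Replicate 8 of the 3xTgAD-BKO mice was apart for Gria3 in hippocampus at 0.835 (11.72 against 12.02) and for Grin2c in brain at 0.799 (13.37 against 13.65). Among 3xTgAD mice, replicate 1 was apart in brain for Grm8 at 0.719 (10 against 10.19), Gabra6 at 0.727 (12.77 against 12.52) and Gabrd at 0.738 (14.28 against 14.16), and in hippocampus for Grin3a at 0.769 (10.25 against 10.57). Replicate 4 was apart for Grin3b in hippocampus at 0.732 (5.13 against 5.55) and Grik2 in brain at 0.739 (6.55 against 6.85), and replicate 2 for Gabbr1 in hippocampus at 0.785 (14.53 against 14.8) and Grm3 in brain at 0.74 (11.38 against 11.24).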

How the results depend on the processing

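The counts of 17 higher and 14 lower receptor genes in the tissue comparison moved most with quantile normalization within a tissue, to 7 and 24, and with slide as a fixed block, to 11 and 9, where 1 slide of 4 held both tissues and the arrays of replicate 0 link the tissues. Without that mouse this block could not be fitted for the tissue comparison or in hippocampus. Leaving out each mouse gave 17 to 20 higher and 13 to 14 lower. Under 75th percentile scaling the median over all genes shifted to 0.28, and 69.5% of all calls were higher (main 49.1%), against 3.2% within tissue. With the mouse as a replicate block the counts were 18 and 14, with Grid1 added, and no other call changed. The partner and supply genes called fell from 43 to 26 with slide as a fixed block.

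With quantile normalization within a tissue Gria2 gave -0.12, Gria3 -0.84, Grin1 -0.31, Grik2 -0.52, Grik5 -0.21, Grid1 -0.68, Grm2 -0.1, Grm7 -0.66, Gabra4 -0.76, Gabrg3 -0.29 and Gabbr1 -0.78, and Grin3a was called at -1.07 (adjusted p = 3.74e-14). With slide as a fixed block Grin1 gave -0.16, Grid1 -0.86, Gabbr1 -0.8 (called, adjusted p = 0.00256) and Grin3a 0.14, and Gabra4 was called at 1.5 (adjusted p = 1.53e-05). Grik2 gave -0.07 in WT females. Grin3a, at -0.01, gave 0.02 with normexp and with slide as a random block. It gave 0.05 in WT females and in males, and -0.03 to 0.01 without 1 mouse. With the mean of probes it was called higher, at 0.23 (adjusted p = 0.000556). Of values near 0 for Gabrg3, males against females in hippocampus gave 0.06 with normexp, 0.03 with the mean of probes and -0.08 to 0.07 without 1 mouse, and -0.04 in brain with slide as a fixed block. JHT against WT females in brain gave 0.04 with normexp, 0 with the mean of probes and -0.09 to 0.03 without 1 mouse.

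Where Gabrg3 was the 1 gene called, the count for 3xTgAD against WT females was 0 in hippocampus and in brain with the mean of probes and, like those for 3xTgAD-BKO against 3xTgAD females and males in both tissues, 0 with only the groups compared and with the methods' t-test adjusted. Unadjusted, the methods' t-test gave 4 in hippocampus and 3 in brain for 3xTgAD against WT females, 9 and 3 for 3xTgAD-BKO against 3xTgAD females, 6 and 6 for males, 2 and 5 for both sexes, 3 for JHT against WT in hippocampus and 3 for males against females in brain, where 5.47% to 17.7% of all genes reached that p in these comparisons. For 3xTgAD-BKO against 3xTgAD in brain the mean of probes and slide as a random block gave 2 for females and 2 for both sexes, and the dim probe filter 2 for females. With the mean of probes the 1 gene called in hippocampus for these comparisons was Grin3a in place of Gabrg3.

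With slide as a fixed block the count was 4 in hippocampus and 2 in brain for 3xTgAD against WT females. For 3xTgAD-BKO against 3xTgAD it was 2 for females in brain, 5 for males in hippocampus, and 4 and 2 for both sexes. It was 3 for males against females in hippocampus, 3 and 3 for the tissue differences of the 3xTgAD and 3xTgAD-BKO comparisons, and 5 for the difference between sexes in hippocampus, which was 2 with the dim probe filter and 4 with all 30 arrays in 1 fit. That fit gave 2 in hippocampus for 3xTgAD against WT females and for 3xTgAD-BKO against 3xTgAD females and both sexes.

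Without 1 mouse the counts ran from 0 to 1 for 3xTgAD against WT females in hippocampus (0 without replicate 2). For 3xTgAD-BKO against 3xTgAD they ran from 0 to 2 for females in hippocampus (0 without replicate 2 or 7), from 1 to 2 for females and for both sexes in brain, and from 1 to 3 for males in hippocampus (3 without replicate 9). For the difference between sexes they ran from 0 to 3 in hippocampus (3 without replicate 9) and from 0 to 1 in brain (1 without replicate 8). The cause was not tested. The other genotype counts did not move when a mouse was left out. Gabra6, not well above background in hippocampus, has only a bound there.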
